A study of Mus musculus with 47 samples.

Results

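Chemokines are small proteins, most of them secreted, that guide white blood cells by binding receptors on the cells' surface. The 35 genes examined here are 30 ligands (17 of the CC, 12 of the CXC and 1 of the CX3C family) and the 5 receptors Ccr1, Ccr2, Ccr6, Ccr7 and Cxcr4. They were taken by name as members of this gene family, and their positions came from the mm9 annotation of the mouse genome. Of the 35 genes, 34 had a span in that annotation, which holds 22350 protein-coding genes. Ccl28 had no span there and was not analysed here.

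The study made ChIP-seq libraries of mouse liver for 3 histone marks: H3K27me3, which Ezh1 and Ezh2 deposit and which accompanies silent genes, H3K27ac, found at active promoters and enhancers, and H3K4me1, found at enhancers. The 4 groups were floxed controls (Ezh2 f/f) and E1/E2-KO mice (Ezh1-/-, EZH2f/f, AC+, labelled DKO), each of both sexes and all 7 weeks old. In E1/E2-KO mice Ezh1 was deleted in the whole body, whereas Alb-Cre deletes Ezh2 in hepatocytes, so that Kupffer, endothelial, stellate and blood cells of the same livers keep Ezh2. Each group and mark had 4 livers, apart from H3K4me1 in E1/E2-KO females, for which the labels list 3. The values come from 12 deposited lists of called regions, 1 per group and mark, each made from the pooled reads of its livers. There were therefore no replicate values, and no difference given below has a test or an error. The lists give positions with no heights and no read counts, so the depth is unknown, and a gene outside every region may still carry the mark below the calling threshold.

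Genes of this family are largely silent in resting tissue and are switched on by inflammatory signals. NF-kB, which answers TNF, IL-1 and bacterial products, drives many neutrophil and monocyte attractants, and interferon drives Cxcl9, Cxcl10 and Cxcl11 through STAT and IRF factors. In liver, hepatocytes, Kupffer cells, sinusoidal endothelial cells and stellate cells can all make chemokines, and recruited monocytes, neutrophils and lymphocytes carry the receptors. Many of the genes sit next to each other in clusters that arose by gene duplication.

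The 4 H3K27me3 lists held 15603 to 19796 regions with median widths of 23600 to 31600 bp and covered 707 to 766 Mb. The H3K27ac list of control males held 29359 peaks, against 49702 to 55930 in the other groups, and the H3K4me1 lists held 51417 to 69797 peaks. In whole liver, fewer cells of a type and less of a mark per cell cannot be told apart. Over 6 marker genes per cell type, hepatocyte markers summed to 18 H3K27ac peaks within 10 kb in control males, 44 in E1/E2-KO males, 41 in control females and 35 in E1/E2-KO females. Kupffer cell markers summed to 0, 1, 0 and 0 peaks in the same order. No Kupffer cell, T cell or B cell marker had H3K27ac within 1 kb of its start in any list, so the lists held almost no such signal at the defining genes of resident macrophages and lymphocytes. The sums ran from 9 to 34 for endothelial, 1 to 7 for stellate, 5 to 10 for T cell, 3 to 8 for B cell, 1 to 4 for monocyte and neutrophil and 2 to 6 for cholangiocyte markers, and each of these ranges had its low end in control males.

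For each gene the percent of its span inside H3K27me3 regions was measured, together with the number of H3K27ac and H3K4me1 peaks within 10 kb. A span was counted as covered from 50%, and coverage is said to have fallen or risen where the E1/E2-KO and control lists of a sex differed by 25 percentage points or more. A peak is called gained where the E1/E2-KO list held it and no control peak of that sex overlapped it by 1 bp, and lost in the reverse case.

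Most of the chemokine genes lay inside H3K27me3 regions in every group. In control males 24 of 34 spans were covered (70.6%), against 30% of all protein-coding genes. In control females 21 were covered (61.8%), against 29.7% of all genes. In the E1/E2-KO lists 26 were covered in males (76.5%, against 32.5% of all genes) and 19 in females (55.9%, against 28.8%). The median coverage of the 34 genes was 100% in each of the 4 lists, where the median over all genes was 0. Most member spans were shorter than a median region, and the values of all genes were not matched for gene length. Neighbors often shared a region, as Ccl2, Ccl7, Ccl11, Ccl12 and Ccl8 did in control males. Members are therefore not independent in the shares given here.

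**Figure D1:**
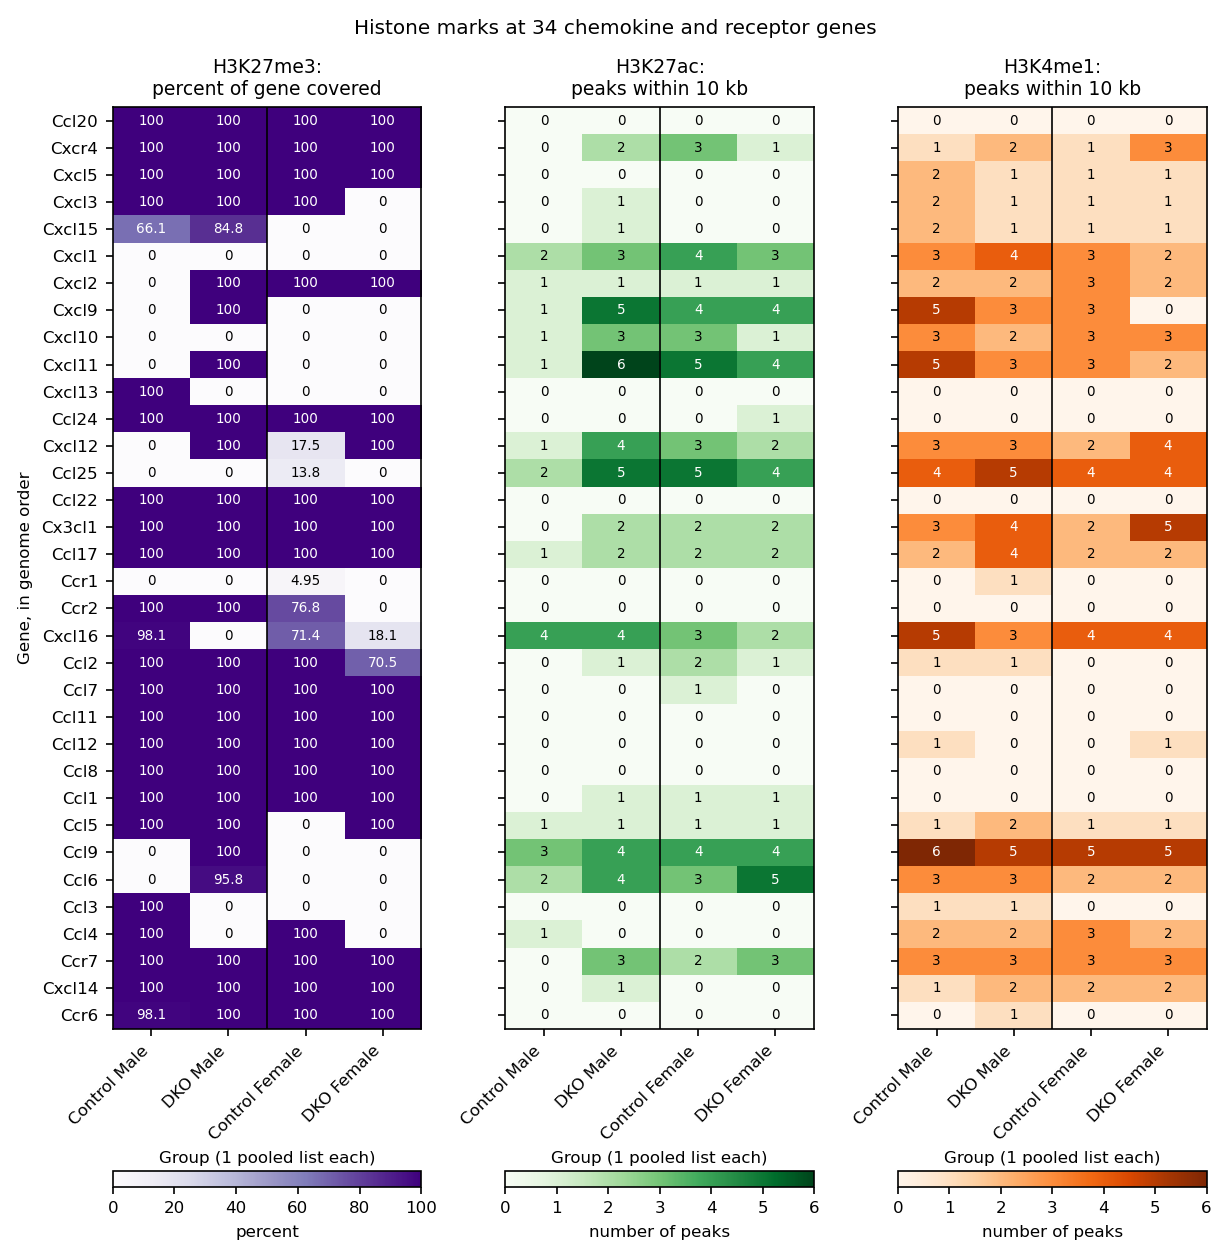
Percent of each gene span inside H3K27me3 regions and numbers of H3K27ac and H3K4me1 peaks within 10 kb, for 34 genes in genome order (rows) in the 4 groups (columns), with 1 pooled list behind each cell. In the left panel 14 rows read 100 in all 4 columns, and the H3K27ac panel is palest in the control male column.

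The same 16 genes were covered in all 4 lists, which is 47.1% of the 34, against 20.1% of all protein-coding genes. Of these, 14 were at 100% in every list, namely the ligands Ccl20, Cxcl5, Ccl24, Ccl22, Cx3cl1, Ccl17, Ccl7, Ccl11, Ccl12, Ccl8, Ccl1 and Cxcl14 and the receptors Cxcr4 and Ccr7. The other two were Ccl2, at 70.5% in E1/E2-KO females, and the receptor Ccr6, at 98.1% in control males. Only Cxcl1, Cxcl10, Ccl25 and Ccr1 were under 50% in all 4 lists, and of these Cxcl1 and Cxcl10 were at 0 throughout. The remaining 14 genes were covered in some lists and not in others.

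In males coverage fell at 4 genes (11.8% of 34, against 6.1% of all genes), namely Cxcl13, Cxcl16, Ccl3 and Ccl4. It rose at 6 (17.6%, against 9.84% of all genes), namely Cxcl2, Cxcl9, Cxcl11, Cxcl12, Ccl9 and Ccl6. In females coverage fell at 5 (14.7%, against 7.57%), namely Cxcl3, Ccr2, Cxcl16, Ccl2 and Ccl4, and rose at 2 (5.88%, against 6.31%), Cxcl12 and Ccl5. Cxcl16 and Ccl4 were the genes that fell in both sexes, and Cxcl12 was the gene that rose in both. Genes with much coverage have more to lose, so the shares were also taken among genes at least 25% covered in the control list. There coverage fell at 4 of 24 members in males (16.7%), against 17.8% of all such genes, and at 5 of 21 in females (23.8%), against 22.2%, shares close to those of other covered genes. Among genes at most 75% covered in the control list, coverage rose at 6 of 11 members in males (54.5%), against 13.3% of all such genes, and at 2 of 14 in females (14.3%), against 8.49%. Of the 6 in males, Cxcl9 and Cxcl11 lie near each other, as do Ccl9 and Ccl6, so the 6 are not independent. With only the widest 50% of the regions of each list, however, the rises in males numbered 3 (Cxcl9, Cxcl12 and Ccl6). No share of all genes is given at that setting, so this count cannot be compared with other genes.

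Rises appeared at hepatocyte genes in the same lists. Of the 6 hepatocyte markers, 4 rose in males, 4 rose in females and 0 fell. Hnf4a, which encodes a transcription factor that maintains the hepatocyte programme, was at 0 in both control lists, 89.1% in E1/E2-KO males and 71% in E1/E2-KO females. Endothelial markers moved the other way, with 3 of 6 falling in each sex, among them Stab2 (87.3% to 0 in males and 64.2% to 0 in females). Over all genes, coverage rose at 9.84% in males and 6.31% in females, and fell at 6.1% and 7.57%. The other marker lists changed little in markers covered (control males, E1/E2-KO males, control females, E1/E2-KO females). Kupffer cell markers gave 3, 3, 3 and 3, stellate 4, 4, 3 and 3, and cholangiocyte 6, 6, 6 and 6. T cell markers gave 5, 6, 6 and 6, B cell 5, 5, 4 and 4, and monocyte and neutrophil 3, 3, 2 and 3. The part of cell makeup or of the region calling in the changes at the chemokine genes was not tested.

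**Figure D2:**
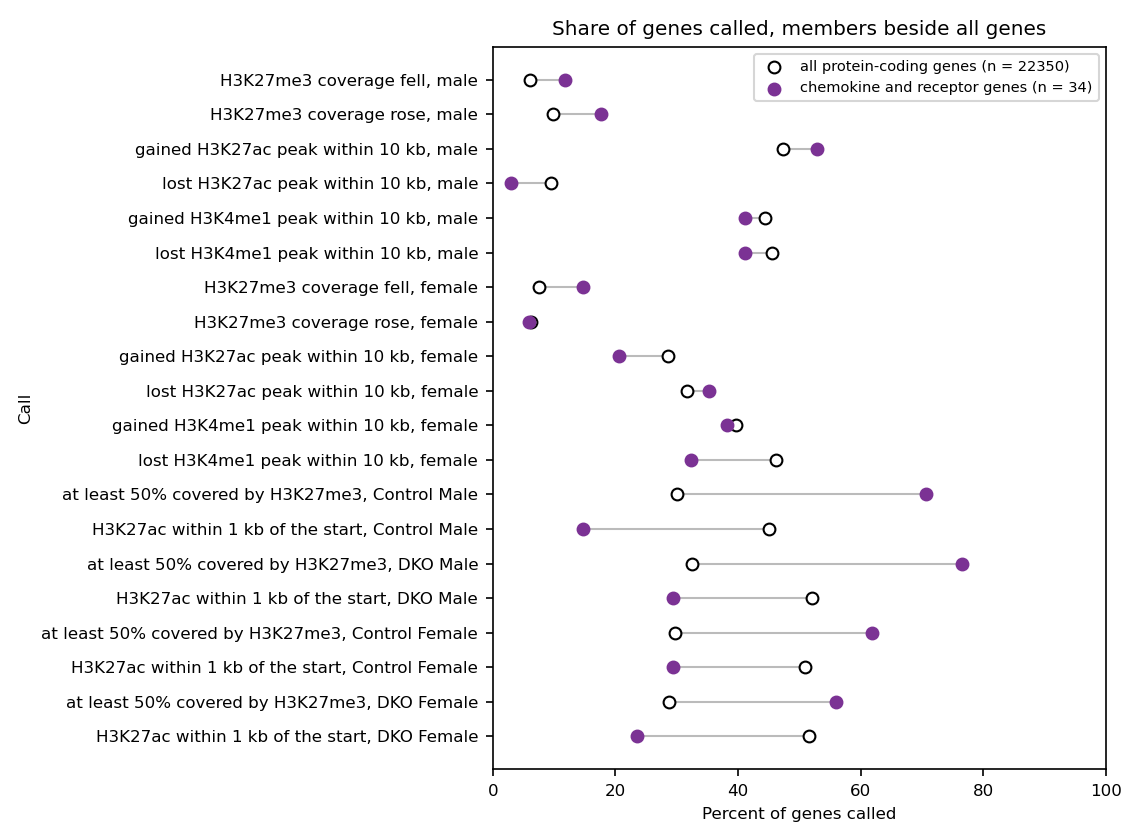
Percent of genes called (x axis) under each call (y axis), with filled points for the 34 chemokine and receptor genes and open points for all 22350 protein-coding genes. The filled points lie far to the right for genes at least 50% covered by H3K27me3 (70.6% against 30% in control males) and to the left for H3K27ac at the start (14.7% against 45%).

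Cxcl1, Cxcl2, Cxcl3, Cxcl5 and Cxcl15, which attract neutrophils, form a block at chr5:91188325-91334935, which also holds the platelet chemokine genes Pf4 and Ppbp. The block was split, with H3K27me3 over its Cxcl5 end and none over Cxcl1. Coverage of the whole block was 27.9% in control males, 34.8% in E1/E2-KO males, 25.2% in control females and 18.7% in E1/E2-KO females. The region over Cxcl5 was 66000 bp wide in control males, 47200 bp in E1/E2-KO males, 41200 bp in control females and 25600 bp in E1/E2-KO females, and in every list it also ran over Pf4 and Ppbp. In the last list it stopped short of Cxcl3, whose coverage was 100% in the other 3 lists and 0 in E1/E2-KO females. Cxcl15, known as a lung chemokine, lay at the edge of the region, with 66.1% in control males, 84.8% in E1/E2-KO males and 0 in both female lists.

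Cxcl1 was the member of this block with H3K27ac at its start in all 4 lists. The peak there was 929 bp wide in control males, 1101 bp in E1/E2-KO males, 1766 bp in control females and 1183 bp in E1/E2-KO females. Within 10 kb Cxcl1 had 2, 3, 4 and 3 H3K27ac peaks in the same order. Cxcl2, its neighbor, had 1 H3K27ac peak in each list, centered between -4085 and -3746 bp from its start and shared with Cxcl1, and its H3K27me3 coverage was 0 in control males and 100% in the other 3 lists. A peak 190 bp wide at the Cxcl3 start appeared in E1/E2-KO males, where the gene was also 100% covered by H3K27me3, and in no other list. Cxcl5 had no H3K27ac peak in any list, although each list had H3K4me1 at its start.

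The sequences before the Cxcl1 start and under the Cxcl3 peak are shown because both hold the NF-kB motif searched, GGGNNTTTC on either strand, in capitals. The motif lay at bases -84 to -76 and -67 to -59 from the Cxcl1 start (chr5:91320067-91320266, plus strand, mm9), and once in the Cxcl3 peak (chr5:91214906-91215095, plus strand, mm9). Such a match is found in 2.94% of windows of 200 bases upstream of all protein-coding genes, and in 2.84% of windows of 190 bases at all H3K27ac peaks of E1/E2-KO males.
Cxcl1, upstream: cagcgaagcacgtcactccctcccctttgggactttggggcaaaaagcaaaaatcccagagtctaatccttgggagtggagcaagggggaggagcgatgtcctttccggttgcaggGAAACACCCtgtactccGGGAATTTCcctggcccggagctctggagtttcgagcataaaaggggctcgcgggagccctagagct
Cxcl3, H3K27ac peak: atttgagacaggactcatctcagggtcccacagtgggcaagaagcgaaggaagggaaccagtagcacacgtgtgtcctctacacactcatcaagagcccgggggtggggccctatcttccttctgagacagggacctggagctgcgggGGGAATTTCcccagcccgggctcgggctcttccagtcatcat

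Cxcl9, Cxcl10 and Cxcl11 are the interferon-induced ligands of Cxcr3 on activated T cells and NK cells. They form a block at chr5:92750357-92794511, where Cxcl10 and Cxcl11 lie within the span of Art3, so that peaks of those genes and of Art3 cannot be told apart. Cxcl11 is annotated there as a processed transcript. H3K27me3 covered 0 of the block in control males, 79.2% in E1/E2-KO males, 0 in control females and 0 in E1/E2-KO females. The E1/E2-KO male list had 2 regions, one of 35200 bp that covered all of Cxcl9 and one of 22800 bp that covered all of Cxcl11, and the gap between them held Cxcl10. The block held 2 H3K27ac peaks in control males, 10 in E1/E2-KO males, 8 in control females and 7 in E1/E2-KO females. The same male list that gained H3K27me3 over Cxcl9 and Cxcl11 thus had the most H3K27ac peaks in the block.

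All 4 lists shared an H3K27ac peak upstream of Cxcl10, centered between -4844 and -4753 bp from its start and 1016 bp wide in control males, 1000 bp in E1/E2-KO males, 1076 bp in control females and 968 bp in E1/E2-KO females. Within 1 kb of the Cxcl10 start there were 0, 1, 1 and 0 peaks in that order. The sexes moved in opposite directions there, with a peak of 263 bp gained in males and a peak of 707 bp lost in females, but with the widest 29359 peaks of each list only the loss in females was left. At the Cxcl11 start there were 0, 2, 2 and 2 peaks, so the control male list was the one without. At the Cxcl9 start there were none, although 1, 5, 4 and 4 peaks lay within 10 kb.

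H3K4me1 moved differently in this block, with 9 peaks in control males, 5 in E1/E2-KO males, 6 in control females and 3 in E1/E2-KO females. In males 6 were lost and 2 gained, and in females 4 were lost and 1 gained. Around Cxcl9 there were 5, 3, 3 and 0 peaks within 10 kb, so the E1/E2-KO female list was the one with none. The sequence before the Cxcl10 start (chr5:92777916-92778115, minus strand, mm9) and the E1/E2-KO male peak there (chr5:92778730-92778992, minus strand, mm9) are shown since this start changed in opposite directions in the sexes on the full lists. Neither window held a match to GGGNNTTTC, to the interferon response motif GAAANNGAA or to the TATA box TATAAA on either strand, so no base is in capitals. The motifs are fixed strings, and binding sites of the same factors with other letters were not searched for. In E1/E2-KO males 4.01%, 7.76% and 9.9% of windows of 263 bases at all H3K27ac peaks held these motifs in that order.
Cxcl10, upstream: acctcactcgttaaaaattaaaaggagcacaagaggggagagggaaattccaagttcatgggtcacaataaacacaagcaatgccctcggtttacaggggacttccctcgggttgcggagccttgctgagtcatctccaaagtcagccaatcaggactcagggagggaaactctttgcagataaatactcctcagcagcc
Cxcl10, H3K27ac peak: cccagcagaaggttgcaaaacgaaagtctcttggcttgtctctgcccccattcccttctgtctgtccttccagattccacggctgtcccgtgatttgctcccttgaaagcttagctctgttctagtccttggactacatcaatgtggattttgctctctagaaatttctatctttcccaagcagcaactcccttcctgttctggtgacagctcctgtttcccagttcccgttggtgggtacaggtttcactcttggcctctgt

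**Figure D3:**
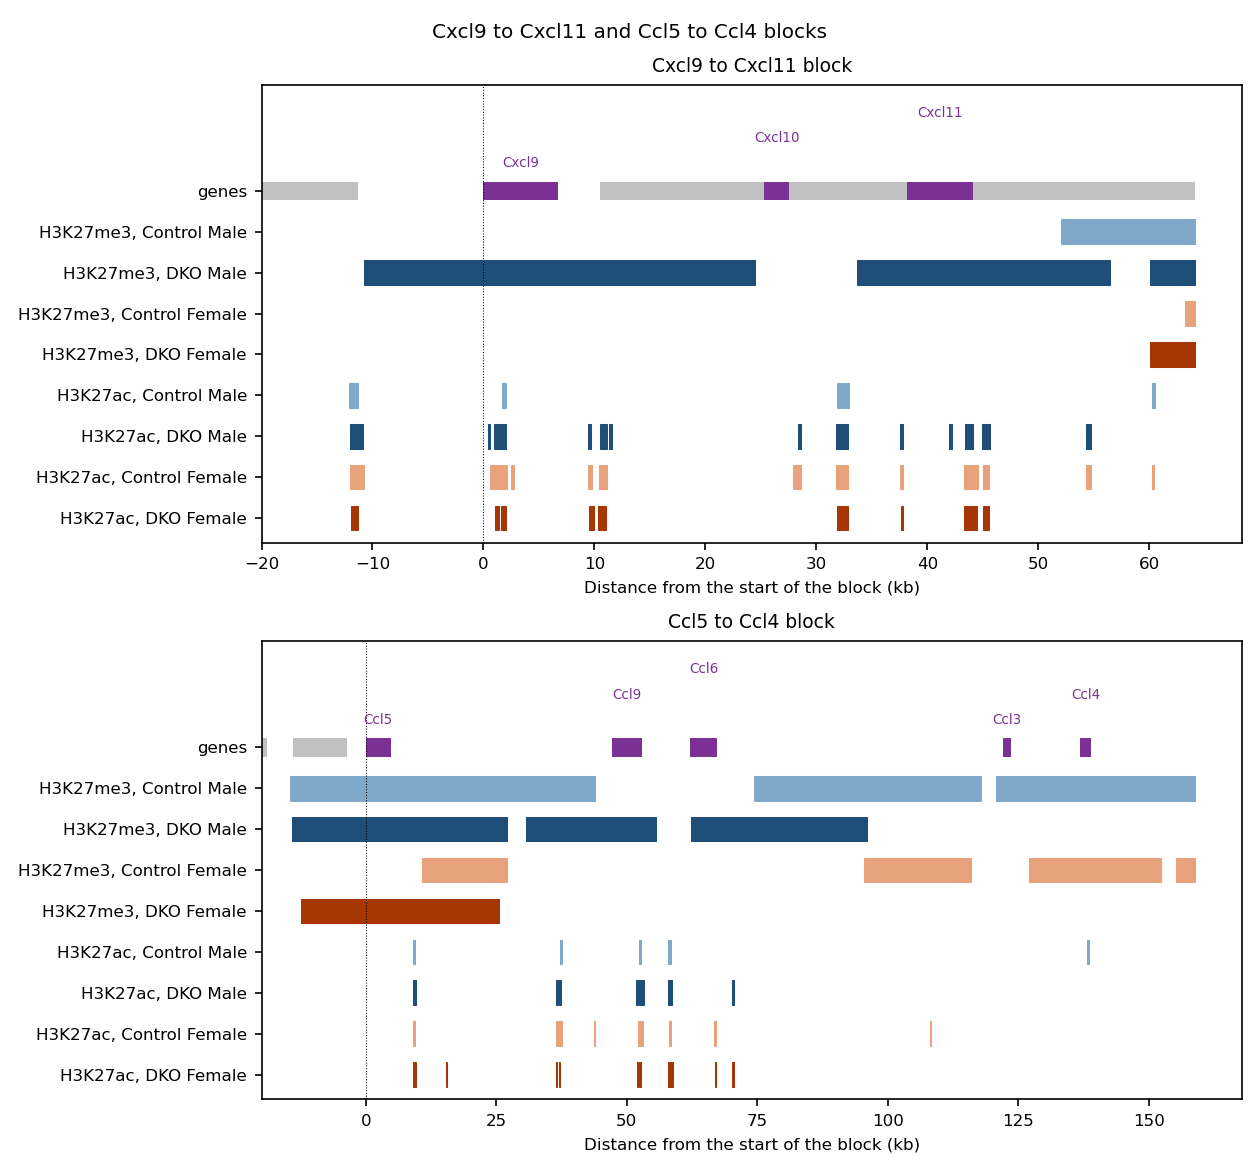
Maps of the Cxcl9 to Cxcl11 and Ccl5 to Ccl4 blocks, with distance from the block start in kb on the x axis, chemokine genes in purple, other protein-coding genes in gray, and bars for called H3K27me3 regions and H3K27ac peaks of each group, drawn from 20 kb before to 20 kb after the block and clipped there. H3K27me3 over Cxcl9, Cxcl11, Ccl9 and Ccl6 appears in the E1/E2-KO male rows only, and no E1/E2-KO row has H3K27me3 over Ccl3 and Ccl4.

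Ccl5, Ccl9, Ccl6, Ccl3 and Ccl4 form a block at chr11:83339280-83478185. Ccl3, Ccl4 and Ccl5 attract T cells, NK cells and monocytes, and Ccl3, Ccl5, Ccl6 and Ccl9 act on Ccr1. H3K27me3 covered 76.1% of the block in control males, 61.6% in E1/E2-KO males, 35% in control females and 18.4% in E1/E2-KO females, so in each sex the knockout list covered less. The positions moved more than the total. In control males 1 region of 78000 bp lay over Ccl3 and Ccl4, both at 100%, and in E1/E2-KO males both were at 0. In the same sex Ccl9 went from 0 to 100% and Ccl6 from 0 to 95.8%, each in a region of its own (24800 bp and 33600 bp).

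Ccl4 was at 100%, 0, 100% and 0 in control males, E1/E2-KO males, control females and E1/E2-KO females, and no other member went from 100% to 0 in both sexes. Ccl3 was covered only in control males. Ccl5 was at 100%, 100%, 0 and 100%, so the control female list was the one without. Loss of H3K27me3 over Ccl3 and Ccl4 did not go with new H3K27ac within 10 kb. Ccl3 had no H3K27ac peak in any list, and Ccl4 had 1 in control males (391 bp, in the gene) and 0 in the others.

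Ccl9 and Ccl6 carried active marks in every list. Within 1 kb of the Ccl9 start there were 1, 2, 1 and 2 H3K27ac peaks, and within 10 kb there were 3, 4, 4 and 4. Ccl6 had 2, 4, 3 and 5 within 10 kb, of which 1 lay at its start in each female list and 0 in each male list. Ccl5 had 1 peak in each list, centered between -4605 and -4477 bp from its start. Ccl9 was therefore among the genes with H3K27ac at the start and 100% coverage by H3K27me3 in E1/E2-KO males.

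The sequences upstream of Ccl3 (chr11:83462858-83463057, minus strand, mm9) and Ccl4 (chr11:83475886-83476085, plus strand, mm9) are shown because both genes lay in the region that was missing from the E1/E2-KO lists. Capitals mark the interferon response motif in both and, in Ccl4, the TATA box at bases -27 to -22. The interferon response motif is found in 5.98% of windows of 200 bases upstream of all protein-coding genes and the TATA box in 10%.
Ccl3, upstream: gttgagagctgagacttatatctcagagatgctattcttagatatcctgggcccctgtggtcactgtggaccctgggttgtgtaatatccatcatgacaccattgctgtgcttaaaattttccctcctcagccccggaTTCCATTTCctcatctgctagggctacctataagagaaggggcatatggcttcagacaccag
Ccl4, upstream: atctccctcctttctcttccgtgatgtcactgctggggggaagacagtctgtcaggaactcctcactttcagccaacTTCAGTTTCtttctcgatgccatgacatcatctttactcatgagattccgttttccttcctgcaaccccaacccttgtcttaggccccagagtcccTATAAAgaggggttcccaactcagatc

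Ccl2, Ccl7, Ccl11, Ccl12, Ccl8 and Ccl1 form a block at chr11:81849073-81993316. Ccl2, Ccl7 and Ccl12 attract monocytes through Ccr2, Ccl11 attracts eosinophils through Ccr3, and Ccl1 acts on Ccr8. This block stayed inside H3K27me3 in all groups, with 93.3% covered in control males, 84.7% in E1/E2-KO males, 90.8% in control females and 91.1% in E1/E2-KO females. A region of 98000 bp in control males, 105600 bp in E1/E2-KO males and 101600 bp in control females ran over Ccl2, Ccl7, Ccl11, Ccl12 and Ccl8. In E1/E2-KO females it was cut within the block, with 11600 bp over Ccl2 and 84400 bp over the other four, and the cut left Ccl2 at 70.5%. A further region of 188000 to 189200 bp held Ccl1 in every list.

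Few activating peaks lay in this block. It held 0 H3K27ac peaks in control males, 1 in E1/E2-KO males, 2 in control females and 1 in E1/E2-KO females, and 1, 0, 0 and 1 H3K4me1 peaks. Ccl11 and Ccl8 had no peak of either mark within 10 kb in any list. Ccl7 had 1 H3K27ac peak, of 420 bp at its start, in control females only. Ccl12 had 1 H3K4me1 peak at its start in control males and in E1/E2-KO females and 0 in the other groups, so the sexes moved in opposite directions.

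A peak of H3K27ac upstream of Ccl2, within Gm17268, was gained in both sexes, with 295 bp centered at -2929 bp from the Ccl2 start in males and 264 bp at -2916 bp in females. In females, however, a peak of 233 bp centered at -1955 bp from the Ccl2 start was lost. A peak past the Ccl1 start was likewise gained in both sexes, with 245 bp centered at 4631 bp from the start in males and 257 bp at 4639 bp in females. The male peaks at Ccl2 (chr11:81845997-81846291, plus strand, mm9) and Ccl1 (chr11:81988563-81988807, minus strand, mm9) are shown as peaks gained in both sexes on the full lists, inside H3K27me3 regions of the same list. Neither held any of the 3 motifs, which 3.73% to 11.2% of windows of the same lengths at all H3K27ac peaks of E1/E2-KO males held.
Ccl2, H3K27ac peak: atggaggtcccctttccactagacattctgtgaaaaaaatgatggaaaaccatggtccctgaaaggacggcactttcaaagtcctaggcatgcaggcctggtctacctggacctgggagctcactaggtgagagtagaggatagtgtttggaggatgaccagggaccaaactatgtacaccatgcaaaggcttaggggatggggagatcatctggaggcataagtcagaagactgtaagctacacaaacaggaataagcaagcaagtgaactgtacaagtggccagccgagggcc
Ccl1, H3K27ac peak: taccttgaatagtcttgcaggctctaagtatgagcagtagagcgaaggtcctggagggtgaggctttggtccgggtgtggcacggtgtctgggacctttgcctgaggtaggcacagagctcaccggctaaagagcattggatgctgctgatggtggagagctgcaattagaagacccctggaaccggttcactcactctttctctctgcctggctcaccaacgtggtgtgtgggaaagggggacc

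**Figure D4:**
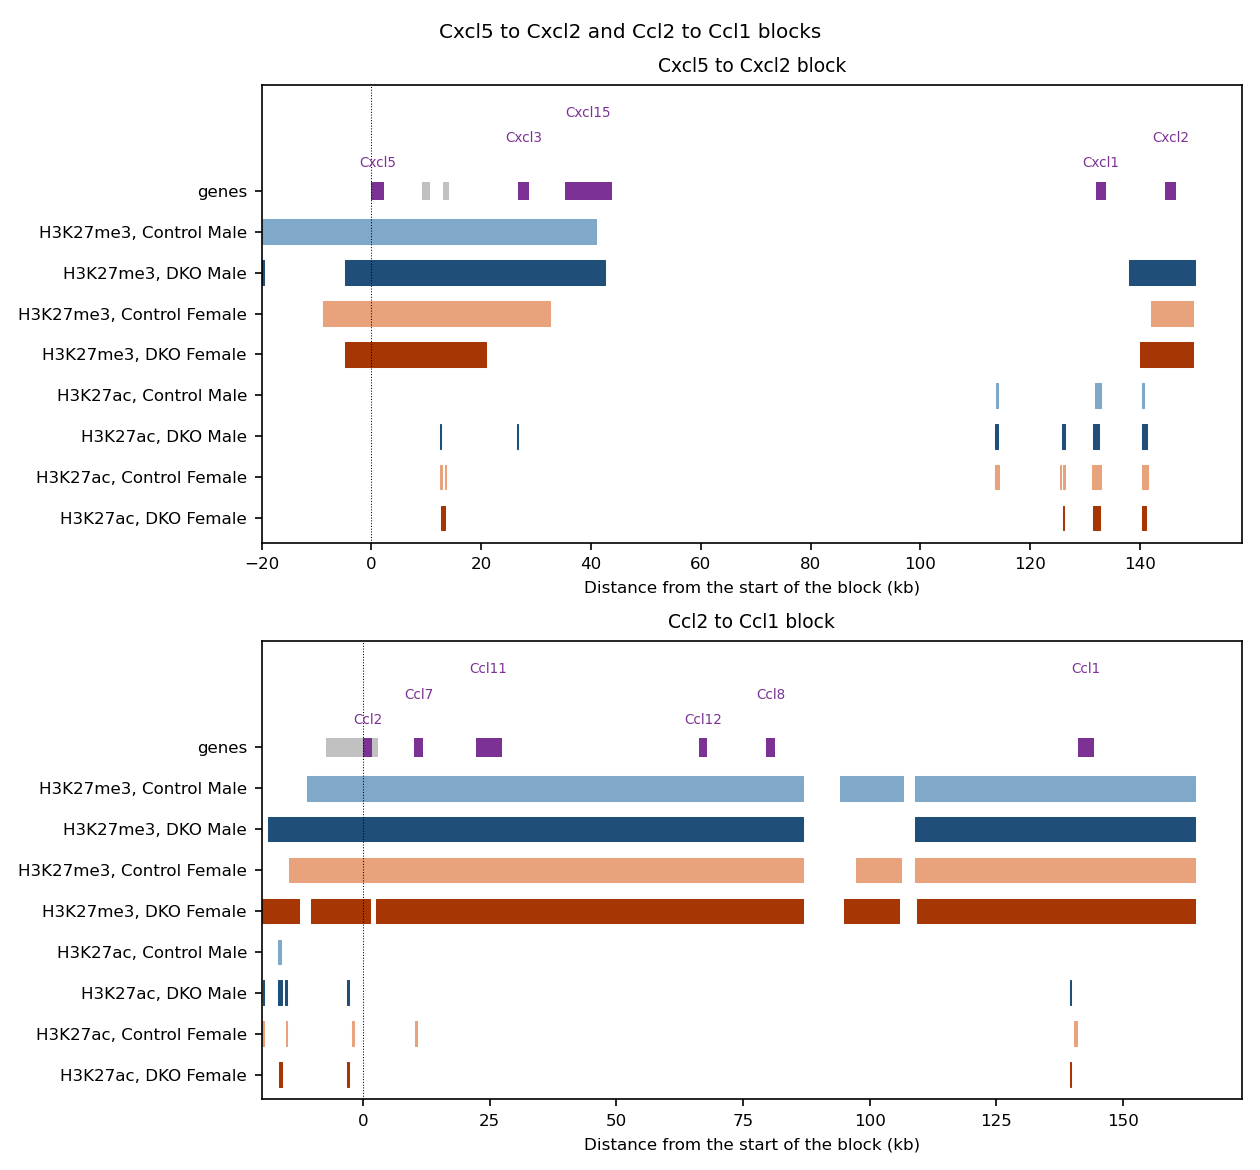
Maps of the Cxcl5 to Cxcl2 and Ccl2 to Ccl1 blocks, with distance from the block start in kb on the x axis, chemokine genes in purple, other protein-coding genes in gray, and bars for called H3K27me3 regions and H3K27ac peaks of each group, clipped 20 kb outside the block. Cxcl1 has H3K27ac and no H3K27me3 in any group, whereas the Ccl2 to Ccl1 block is at least 84.7% covered in each.

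Ccl22, Cx3cl1 and Ccl17 form a block at chr8:97269490-97335935. Ccl22 and Ccl17 attract regulatory and type 2 helper T cells through Ccr4, and Cx3cl1, or fractalkine, is a membrane-bound ligand for Cx3cr1 on monocytes. Coverage by H3K27me3 was 92.8% in both male lists, 92.2% in control females and 92.8% in E1/E2-KO females, and all 3 genes were at 100% in each list. The region over Ccl22 and Cx3cl1 had the same ends in both male lists and in E1/E2-KO females (90800 bp), and was 69200 bp wide in control females. Ccl22 had no activating peak in any list. Cx3cl1 had 0, 2, 2 and 2 H3K27ac peaks within 10 kb, none at its start, and 3, 4, 2 and 5 H3K4me1 peaks. Of the H3K4me1 peaks 1, 1, 0 and 2 lay at its start, so the control female list was the one without. Ccl17 had 1, 2, 2 and 2 H3K27ac peaks, all downstream of the gene and some overlapping its neighbor Ciapin1.

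The remaining ligands lie apart from each other. Cxcl12, made by stromal cells and needed for keeping hematopoietic cells in their niche, was at 0 in control males, 100% in E1/E2-KO males, 17.5% in control females and 100% in E1/E2-KO females, and was the member whose coverage rose in both sexes. The region was 163200 bp wide in E1/E2-KO males and 87600 bp in E1/E2-KO females, whereas in control females 72000 bp of H3K27me3 ended inside the gene. Within 3 kb of its start the rise in females was under 25 points. H3K27ac was present at the Cxcl12 start in all 4 lists (1, 2, 1 and 1 peaks), with 1, 4, 3 and 2 peaks within 10 kb. Its receptor Cxcr4 was at 100% in all 4 lists. At the Cxcr4 start H3K27ac peaks numbered 0, 2, 2 and 0, so males gained 2 and females lost 2. With the widest 29359 peaks of each list there were 0, 1, 0 and 0, so only the gain in males was left. H3K4me1 peaks there numbered 1, 2, 1 and 3.

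The upstream peak of E1/E2-KO males at Cxcr4 (chr1:130489027-130489297, minus strand, mm9) is shown because this start changed in opposite directions in the sexes on the full lists. It held 1 match to the NF-kB motif, in capitals, as did 4.12% of windows of 271 bases at all H3K27ac peaks of that list.
Cxcr4, H3K27ac peak: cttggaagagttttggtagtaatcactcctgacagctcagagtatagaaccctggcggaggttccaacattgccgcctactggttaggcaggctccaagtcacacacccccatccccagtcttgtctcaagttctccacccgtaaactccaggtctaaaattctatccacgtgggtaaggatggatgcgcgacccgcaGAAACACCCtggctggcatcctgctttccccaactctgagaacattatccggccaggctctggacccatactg

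Cxcl16, a membrane-bound ligand for Cxcr6 on NKT cells and other liver lymphocytes, was at 98.1% in control males, 0 in E1/E2-KO males, 71.4% in control females and 18.1% in E1/E2-KO females. Its region was 46000 bp in control males, 34400 bp in control females and 10400 bp in E1/E2-KO females. The gene had H3K27ac at its start in all 4 lists, so both control lists had H3K27me3 over most of the gene together with H3K27ac at its start. That peak also overlapped the neighbor Zmynd15, and within 10 kb there were 4, 4, 3 and 2 H3K27ac peaks. Cxcl13, which draws B cells into follicles, was at 100% in control males and 0 in the other 3 lists, and had no peak of either activating mark in any list. Of the pair that fell in males outside the Ccl3 and Ccl4 region, one thus had H3K27ac throughout and the other had none.

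The sequence before the Cxcl13 start (chr5:96385745-96385944, plus strand, mm9) held a TATA box, in capitals, at bases -33 to -28. It is shown as a start that lost coverage in males and had no activating peak in any list.
Cxcl13, upstream: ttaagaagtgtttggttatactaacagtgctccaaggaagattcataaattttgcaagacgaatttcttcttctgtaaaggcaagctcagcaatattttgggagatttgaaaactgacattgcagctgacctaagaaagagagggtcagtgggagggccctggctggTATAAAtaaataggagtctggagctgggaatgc

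Ccl20, the ligand of Ccr6 on type 17 helper T cells, was at 100% in all 4 lists and had no activating peak. Ccl24, an eosinophil attractant, was at 100% in all 4 and had 1 H3K27ac peak, of 192 bp at its start, in E1/E2-KO females only. Cxcl14, made by epithelia, was at 100% in all 4, within regions of 160000 to 212400 bp, and had 1 H3K27ac peak at its start in E1/E2-KO males only. Its start also carried H3K4me1 in every list. Ccl25, which guides T cells to the gut, was at 0, 0, 13.8% and 0 and had 2 H3K27ac peaks within 1 kb of its start in each list. One of these lay within the neighbor Elavl1, on the other side of the same start.

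Among the receptors, Ccr7, which brings dendritic cells and T cells to lymph nodes, was at 100% in all 4 lists, and the region over it was 102800 bp wide in control males, 38800 bp in E1/E2-KO males, 13200 bp in control females and 86400 bp in E1/E2-KO females. It had 0, 3, 2 and 3 H3K27ac peaks within 10 kb and none at its start. Ccr6 was at 98.1%, 100%, 100% and 100% with no H3K27ac. Ccr2, the receptor of inflammatory monocytes, was at 100% in control males, 100% in E1/E2-KO males, 76.8% in control females and 0 in E1/E2-KO females, and had no activating peak in any list. Ccr1, found on monocytes and neutrophils, was at 0, 0, 4.95% and 0. With blocks formed at up to 250 kb, Ccr1 and Ccr2 joined a block with Ccr3 and Ccr1l1, of which 68.1% was covered in control males, 10.2% in E1/E2-KO males, 36.7% in control females and 0 in E1/E2-KO females.

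H3K27ac at the start was rarer at the chemokine genes than over all genes. It was present at 5 of 34 in control males (14.7%, against 45% of all genes) and at 10 in E1/E2-KO males (29.4%, against 52%). In control females it was present at 10 (29.4%, against 50.9%), and in E1/E2-KO females at 8 (23.5%, against 51.6%). The 5 with a peak in all 4 lists were Cxcl1, Cxcl12, Ccl25, Cxcl16 and Ccl9. A further 8 had one in some lists, namely Cxcr4, Cxcl3, Cxcl10, Cxcl11, Ccl24, Ccl7, Ccl6 and Cxcl14, and 21 had none in any list. Of the 16 genes covered by H3K27me3 in all lists, 12 were among those 21. H3K27ac at the start and coverage of 50% or more by H3K27me3 coincided at 1 gene in control males (2.94%, against 5.13% of all genes), Cxcl16, and at 6 in E1/E2-KO males (17.6%, against 12.1%), Cxcr4, Cxcl3, Cxcl11, Cxcl12, Ccl9 and Cxcl14. They coincided at 3 in control females (8.82%, against 8.55%), Cxcr4, Cxcl16 and Ccl7, and at 2 in E1/E2-KO females (5.88%, against 9.2%), Ccl24 and Cxcl12. The E1/E2-KO male count was 4 with lists cut to the widest 29359 H3K27ac peaks (11.8%, against 9.51%), without Cxcl3 and Cxcl14, and 4 with the widest 50% of H3K27me3 regions (11.8%, against 9.15%), without Cxcl11 and Ccl9. On the shortened H3K27ac lists the E1/E2-KO female count was 1 (2.94%, against 7.19%), Cxcl12.

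Within 10 kb, 18 genes gained an H3K27ac peak in males (52.9%, against 47.4% of all genes) and Ccl4 alone lost one (2.94%, against 9.48%). In females 7 gained one (20.6%, against 28.6%) and 12 lost one (35.3%, against 31.6%). The male gains stand beside a control list with the fewest peaks. Of the 31 peaks gained near these genes in males, 15 (48.4%) overlapped a peak of control females, as did 49.4% of all peaks gained in males. With the widest 29359 peaks of each list, 8 genes gained a peak in males (23.5%, against 22.9% of all genes) and 4 lost one (11.8%, against 22%). Cxcr4, Cxcl1, Cxcl9, Cxcl11, Cxcl12, Ccl9, Ccl6 and Ccr7 were the 8. In females 5 gained one on such lists (14.7%, against 17.8%), of which only Ccl6 was among the 7 above, and 11 lost one (32.4%, against 20.9%), of which 9 were among the 12. The genes called as gaining a peak in females thus changed with the length of the lists.

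Cxcr4, Cx3cl1, Ccl2, Ccl1, Ccl6 and Ccr7 gained an H3K27ac peak in both sexes (17.6%, against 23.8% of all genes). On lists of equal length 3 genes did so (8.82%, against 9.85%), Cxcl9, Ccl9 and Ccl6, so only Ccl6 was called both ways. At Cxcr4, Cx3cl1, Ccl2 and Ccl1 the peaks gained on the full lists lay inside H3K27me3 regions of the same list over the gene. The 12 that lost a peak in females were Cxcr4, Cxcl1, Cxcl9, Cxcl10, Cxcl11, Ccl25, Cx3cl1, Cxcl16, Ccl2, Ccl7, Ccl1 and Ccl9. Of these, Cxcr4, Cx3cl1, Ccl2 and Ccl1 also gained one in females, at another place.

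Enhancer marking by H3K4me1 went both ways. In males 14 genes gained a peak (41.2%, against 44.4% of all genes) and 14 lost one (41.2%, against 45.5%). In females 13 gained one (38.2%, against 39.6%) and 11 lost one (32.4%, against 46.2%). Summed over the 34 genes there were 61 H3K4me1 peaks in control males, 59 in E1/E2-KO males, 49 in control females and 50 in E1/E2-KO females. The sums for H3K27ac were 21, 54, 49 and 42. Ccl20, Cxcl13, Ccl22, Ccr2, Ccl11 and Ccl8 had no peak of either mark in any list, and of these only Cxcl13 and Ccr2 were not covered by H3K27me3 throughout.

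The starts of these genes differ in base composition from most starts. Within 500 bases either side, the ratio of observed to expected CpG had a median of 0.19 over the 34 genes (lowest 0.0637 at Ccr1, highest 1.07 at Ccl25), against 0.554 over all protein-coding genes, and GC content had a median of 49.8%, against 54.9%. A ratio of 0.6 or more was found at 5 genes (14.7%), against 46% of all genes, and these were Cxcr4, Cxcl12, Ccl25, Cxcl16 and Cxcl14. Each of the 5 had H3K27ac at its start in at least 1 list. The 21 genes with no H3K27ac at the start had ratios of 0.0637 to 0.481, whereas the 5 with H3K27ac in every list had ratios from 0.105 at Ccl9 to 1.07.

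**Figure D5:**
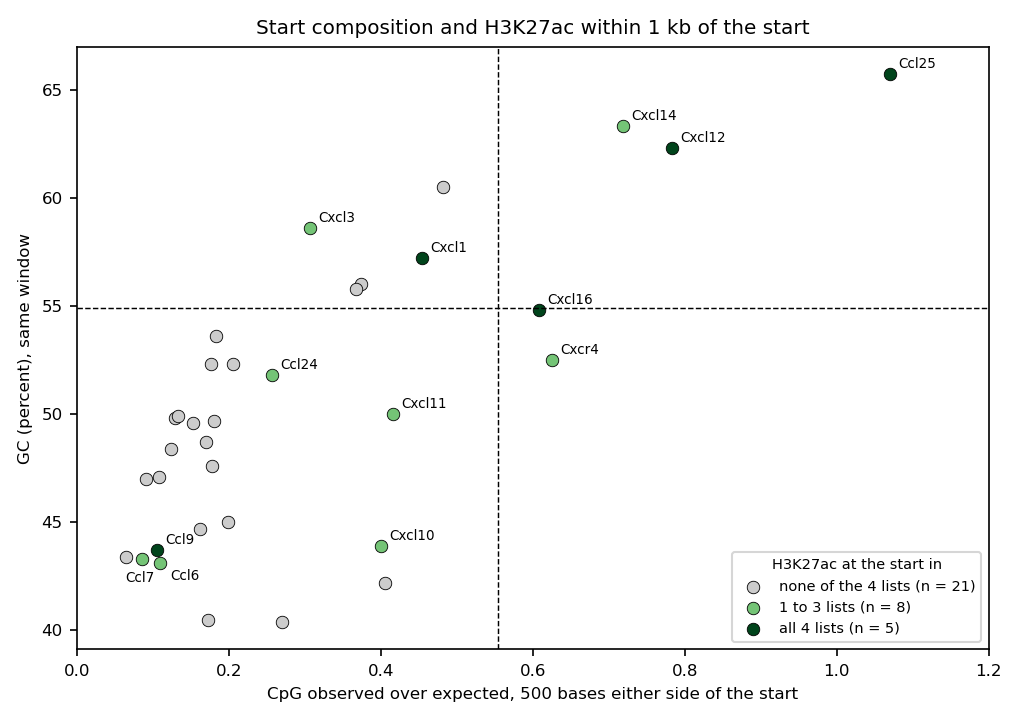
GC content in percent (y axis) against the ratio of observed to expected CpG (x axis) in 500 bases either side of each of 34 starts, colored by the number of H3K27ac lists with a peak within 1 kb, with dashed lines at the medians of all protein-coding genes (0.554 and 54.9%). The 21 starts without H3K27ac lie to the left of the vertical line, and Ccl9, Ccl6 and Ccl7 carry H3K27ac at low ratios.

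In the same windows the NF-kB motif was found at 16 of the 34 starts (47.1%), against 13.4% of all genes, and in the 200 bases upstream at 11 (32.4%), against 2.94%. The 11 were Ccl20, Cxcl5, Cxcl3, Cxcl1, Cxcl2, Cxcl9, Cx3cl1, Ccl2, Ccl5, Ccl9 and Ccr7. The interferon response motif was found in the wider windows at 10 (29.4%), against 25.2% of all genes, and upstream at 5 (14.7%), against 5.98%. The TATA box was found at 21 (61.8%), against 32%, and upstream at 12 (35.3%), against 10%. Related genes share sequence, so these starts are not independent, and a match is a description of the letters. Sites with other letters were not counted, so a start without a match may still hold such a site.

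Other genes of the chemokine system, 28 with a span and listed by name, gave lower coverage than the members. By H3K27me3, 14 were covered in control males (50%, against 30% of all genes), 11 in E1/E2-KO males (39.3%, against 32.5%), 14 in control females (50%, against 29.7%) and 10 in E1/E2-KO females (35.7%, against 28.8%). In females coverage fell at 5 (Ccr3, Ccr10, Ccrl2, Cxcr5 and Xcr1). It rose at 0 in females and at 1 in males, the decoy receptor Ccbp2. Ccr3, the eosinophil receptor, and Ccrl2, a neighbor of the Ccr genes, were at 100% in both control lists and 0 in both E1/E2-KO lists. H3K27ac was at the Ccrl2 start in all 4 lists. Ccl21a, Ccl21b and Ccl21c, near-identical copies at which reads may not be placed, were listed at 0 for every mark measured.

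The genes of the NF-kB, interferon and cytokine pathways that control chemokine transcription had more active starts. Of 24 listed, H3K27ac was at the start in 19 in control males (79.2%, against 45% of all genes), 19 in E1/E2-KO males (79.2%, against 52%), 18 in control females (75%, against 50.9%) and 20 in E1/E2-KO females (83.3%, against 51.6%). H3K27me3 covered 8 of them in control males (33.3%, against 30%), 6 in E1/E2-KO males (25%, against 32.5%), 7 in control females (29.2%, against 29.7%) and 5 in E1/E2-KO females (20.8%, against 28.8%). Coverage fell at 4 in each sex (16.7%, against 6.1% of all genes in males and 7.57% in females). It rose at 2 in males (8.33%, against 9.84%), Il1a and Ifng, and at 3 in females (12.5%, against 6.31%), Il6, Ifng and Tlr4. Ifng, which encodes the interferon that induces Cxcl9, went from 0 to 100% in both sexes, and Il6 fell from 100% to 0 in males and rose from 39.7% to 100% in females. Relb, a subunit of NF-kB, was at 86.1%, 0, 63.7% and 0, and Tlr2, a sensor of bacterial lipoproteins, was at 100%, 0, 100% and 0. Irf8, a factor of macrophages and dendritic cells, was at 54.8%, 8.82%, 66.6% and 0. Relb, Tlr2 and Irf8 fell in both sexes, and each had H3K27ac at its start in all 4 lists.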

How the data were processed

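Per the labels and the study's methods, the authors aligned 50 nt paired-end reads to mm9 with Bowtie2 2.3.2, joined the reads of the livers of each group, and ran SICER 1.1 for H3K27me3 regions, in windows of 400 bp joined across gaps of up to 2400 bp, and MACS2 2.1.1 for peaks of the other marks. The 12 deposited lists hold positions only. SICER starts were read as counting from 0 and ends as the last base counted from 0, so 1 was added to both. Gene spans and starts came from the protein-coding transcripts of the mm9 GENCODE M1 annotation. For Cxcl11, a processed transcript there, all transcripts were used, and the 2 records of Ccl25 were joined. Members within 100 kb of each other formed a block. All 34 members with a span are named with their values, and other genes come from lists of further chemokine genes, inducers and cell type markers, or are neighbors that a printed region touches. Members and lists were chosen with earlier results of these data known. Values were computed with Python 3.11.15 and numpy 2.4.6 and plotted with matplotlib 3.10.9. The scripts were tested on simulated intervals. Alternatives changed the span, distance, overlap, threshold, region width, list length and gene model, of which the full gene model was added after seeing the data. So were, on lists of equal length, the shares of all genes, the calls in both sexes or of both marks and the counts at the Cxcr4, Cxcl10 and Ccl12 starts, and, with the widest 50% of regions, the calls of both marks. Sequences were read from the mm9 genome. Some items are not reported here.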

Additional observations from a re-analysis of the deposited data

Results flagged for a closer look

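Near 3 start sites the number of peaks went up in one sex and down in the other. At the Cxcr4 start H3K27ac peaks went from 0 to 2 in males and from 2 to 0 in females, so the male change minus the female change was 4 peaks. With the widest 29359 H3K27ac peaks of each list it was 1, with a gain in males and no peak in females. At the Cxcl10 start H3K27ac peaks went from 0 to 1 in males and from 1 to 0 in females, a difference of 2. With the same shortened lists it was 1, with a loss in females and no peak in males. At the Ccl12 start H3K4me1 peaks went from 1 to 0 in males and from 0 to 1 in females, a difference of -2, which was also -2 with the widest 51417 H3K4me1 peaks of each list. Among the inducers of chemokine genes, H3K27me3 coverage of Il6 went from 100% to 0 in males and from 39.7% to 100% in females, a difference of -160 percentage points. These differences between the sexes were not tested, since each group had 1 pooled list per mark.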

How the results depend on the processing

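Of 109 recomputed counts of members called in 1 sex or covered or marked in 1 list, and of blocks, 90 stayed within 1.5 times the reported count. The other 19 follow, and most came from the distance at which a peak was assigned to a gene. With peaks that overlap the gene span itself, H3K27ac was gained at 6 members in males and 2 in females and lost at 4 in females, and H3K4me1 was gained at 3 and lost at 5 in males and gained at 4 and lost at 4 in females. With a distance of 50 kb, H3K27ac was lost at 6 in males and gained at 19 and lost at 25 in females, and H3K4me1 was gained at 28 and lost at 24 in males and gained at 26 and lost at 20 in females. With an overlap of 50% needed for a shared peak, H3K27ac was gained at 11 in females. With lists cut to equal numbers of the widest peaks, H3K27ac was gained at 8 and lost at 4 in males. With the widest 50% of regions, H3K27me3 coverage rose at 3 in males (Cxcl9, Cxcl12 and Ccl6), and within 3 kb of the start it rose at 1 in females (Ccl5). Of these 19, only the counts on lists of equal numbers have a share of all genes, given above. The others have none and cannot be compared with other genes. Outside these 109, lists of equal length lowered the genes that gained H3K27ac in both sexes from 6 to 3 and the genes with both marks in E1/E2-KO females from 2 to 1, and lowered the differences between the sexes in peaks at the Cxcr4 start from 4 to 1 and at the Cxcl10 start from 2 to 1. A longer gap of 250 kb made 6 blocks in place of 5.

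No paired analysis was possible because each group had 1 pooled list per mark, with no replicate values. For the same reason no fit without one of the livers was made. The lists carry no heights and no read numbers, so a lost region cannot be told apart from one that passed below the calling threshold. The part of depth and cell makeup in the changes was not tested.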
